A study of Mus musculus with 8 samples.

Results

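The miR-29 family was followed in the kidney of outbred CD-1 mice. 4 samples came from animals given tacrolimus at 1 mg/kg per day for 28 days, and 4 control samples from animals given physiological serum. The members were chosen by name, as every mouse spot of the array carrying 1 of 5 names (mmu-miR-29a-3p, mmu-miR-29b-3p, mmu-miR-29c-3p, mmu-miR-29a-5p and mmu-miR-29c-5p, written below without the species prefix), and all 5 were found among 1023 mouse miRNAs. Each sample, 0.1 µg of RNA with an integrity number of 9, was hybridised to 1 one-colour Agilent miRNA array. The labels name a Cy3 labelling kit made for mRNA, and no source used here describes the labelling of miRNA. Nothing in the labels tells whether the samples of a group come from different mice, so the p-values cover the spread between samples alone, which could be technical. Whole kidney holds many cell types, and fewer cells of a type cannot be told apart from less miRNA per cell.

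A miRNA is a short RNA, cut from 1 arm of a hairpin precursor, that pairs through its seed (bases 2 to 8) with messenger RNAs and lowers their output. The 3p arms of the miR-29 family are known for targeting messengers of the extracellular matrix, among them fibrillar and basement membrane collagens, elastin and fibrillin. In fibrotic kidney and other organs the family is known to fall under TGF-beta signalling, and raising it is known to reduce collagen in mouse models. Tacrolimus is a calcineurin inhibitor used against transplant rejection, and chronic kidney injury with fibrosis is a known side effect of it. The comparison asked whether the level of these miRNAs in the kidney differed after tacrolimus.

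The mature sequences are shown because the 3p members share a seed and the 5p members do not. They are RefSeq's, matched by name for all 5 members, and the seed stands in capitals.
miR-29a-3p: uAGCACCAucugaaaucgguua
miR-29b-3p: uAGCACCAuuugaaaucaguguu
miR-29c-3p: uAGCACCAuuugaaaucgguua
miR-29a-5p: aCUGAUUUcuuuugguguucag
miR-29c-5p: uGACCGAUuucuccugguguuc
The 3p members share the seed AGCACCA, which pairs with the letters UGGUGCU in a target, and no other of the 1679 mature mouse miRNAs in the table carries that seed (3 names in all). The seeds of miR-29a-5p and miR-29c-5p are carried by 1 name each. Counted from 1 at the 5′ end, miR-29a-3p differs from miR-29c-3p by 1 base, C10U. From miR-29a-3p to miR-29b-3p there are 4 differences over the shared length, C10U, G18A, U21G and A22U, and miR-29b-3p is 1 base longer.

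The family comes from 4 hairpins in 2 pairs. Their sequences are printed to show which arms the array can see, with both mature arms in capitals (RefSeq, GRCm38.p6).
Mir29a: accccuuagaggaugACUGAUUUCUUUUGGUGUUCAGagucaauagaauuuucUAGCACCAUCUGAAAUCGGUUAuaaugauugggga
Mir29b-1: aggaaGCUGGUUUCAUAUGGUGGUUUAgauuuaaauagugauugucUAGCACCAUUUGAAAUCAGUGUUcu
Mir29b-2: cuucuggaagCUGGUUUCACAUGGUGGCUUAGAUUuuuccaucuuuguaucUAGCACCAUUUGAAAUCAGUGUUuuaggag
Mir29c: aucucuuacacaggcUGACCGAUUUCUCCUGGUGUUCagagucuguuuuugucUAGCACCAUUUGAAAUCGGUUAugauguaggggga
Mir29a (chr6:31062660-31062747) and Mir29b-1 (chr6:31063023-31063093) lie on the minus strand with 275 bases between them, and no other gene of the RefSeq table overlaps them. Mir29b-2 (chr1:195037040-195037120) and Mir29c (chr1:195037547-195037634) lie on the plus strand with 426 bases between them, within the gene A330023F24Rik. miR-29b-3p is made from both pairs with 1 sequence, so its signal cannot be divided between chromosome 1 and chromosome 6.

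Each 3p member was measured by 2 probes of 20 spots each. The probes are complementary to the 3′ end of the miRNA and differ in how far they reach towards its 5′ end, and their sequences show how closely the 3 targets resemble each other. The base facing position 10 of the miRNA stands in capitals.
miR-29a-3p, 20 bases: taaccgatttcaGatggtgc
miR-29a-3p, 19 bases: taaccgatttcaGatggtg
miR-29b-3p, 21 bases: aacactgatttcaAatggtgc
miR-29b-3p, 20 bases: aacactgatttcaAatggtg
miR-29c-3p, 22 bases: taaccgatttcaAatggtgcta
miR-29c-3p, 21 bases: taaccgatttcaAatggtgct
A probe of miR-29a-3p has 1 mismatched base against miR-29c-3p, and the reverse holds too, so these members may share signal and are uncertain as separate measurements. miR-29b-3p stands further off, with 3 of its bases mismatched to a miR-29c-3p probe and 4 to a miR-29a-3p probe. miR-29c-5p was measured by 2 probes of 20 spots and miR-29a-5p by 4 probes of 10 spots.

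Detection differed between the arms. Detection of a probe on an array required that at least 0.5 of its spots be well above background. Both probes of miR-29a-3p, miR-29b-3p and miR-29c-3p were detected on all 4 tacrolimus and all 4 control arrays, with 100% of their spots well above background in either group and 0 saturated. The brightest probe of miR-29c-5p was also detected on all 8 arrays, and its other probe on 3 tacrolimus and 4 control arrays. miR-29a-5p, the passenger arm of the Mir29a hairpin, was detected on 0 tacrolimus and 0 control arrays. Of its spots, 0 of 148 in tacrolimus and 2 of 153 in control arrays were well above background, so it was not tested and has no fold change. The 5p arms of the remaining hairpins are not members. miR-29b-2-5p was detected on 0 arrays of each group, and miR-29b-1-5p on 3 tacrolimus and 0 control arrays, with 18 of 138 spots well above background after tacrolimus and 9 of 146 in controls. Its longest probe gave 37.1, 36.2, 25.8 and 27.0 intensity units on tacrolimus arrays 1 to 4, against 38.1, 28.5, 23.1 and 24.6 on control arrays 1 to 4. These groups overlap, and the miRNA was not tested.

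Array brightness moved all detected members together before any scaling. The background-subtracted signal of miR-29a-3p was 15330, 15460, 11160 and 15970 on tacrolimus arrays 1 to 4, against 18460, 12700, 11250 and 12020 on control arrays 1 to 4, a span of 1.65-fold. The spans of miR-29b-3p, miR-29c-3p and miR-29c-5p were 1.64-fold, 1.66-fold and 1.68-fold. Each array was scaled to 1 value, the 75th percentile over those 252 probes that all arrays detected, which lay between 1649 and 2270 on tacrolimus and between 1431 and 2527 on control arrays. Control array 3, the dimmest by this measure, kept more of its miR-29 signal than of its 75th percentile. The variation among spots of a probe was small, with a median coefficient of variation of 3.76% for miR-29a-3p, 5.36% for miR-29b-3p, 5% for miR-29c-3p and 7.16% for miR-29c-5p over the 8 arrays (brightest probe).

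**Figure D1:**
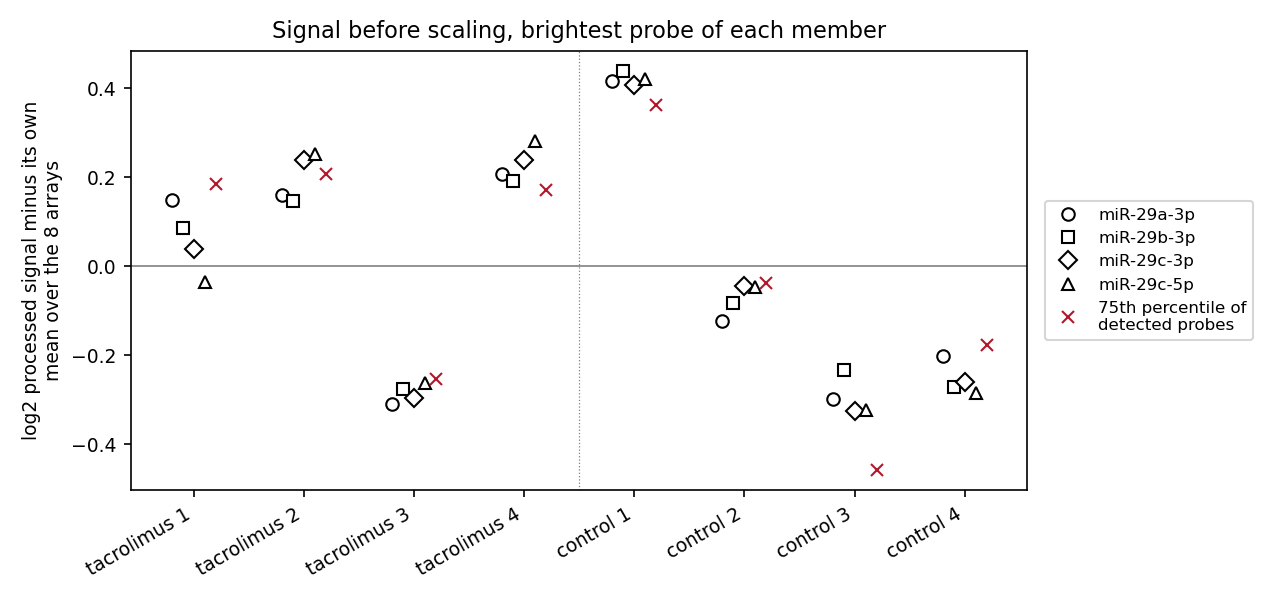
Log2 processed signal of the brightest probe of each detected member before scaling, minus its own mean over the 8 arrays, with the 75th percentile of the detected probes as crosses, tacrolimus arrays on the left and control arrays on the right. The members move with the brightness of the array, and on control 3 they lie above the cross.

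After scaling, the groups differed for miR-29a-3p, the 3p arm of the Mir29a hairpin, by less than the spread between replicates. On the log2 scale, where 0 is the 75th percentile of the detected probes, it had 2.78, 2.77, 2.76 and 2.85 on the tacrolimus arrays, against 2.87, 2.73, 2.97 and 2.79 on the control arrays. The tacrolimus values lay inside the control range, whose ends were control 2 and control 3. The means were 2.79 ± 0.042 on tacrolimus and 2.84 ± 0.11 on control arrays (SD, n = 4 each), a difference of -0.05 (SE 0.071) or 0.965-fold, with a 95% interval of 0.864 to 1.08 (adjusted p = 0.741, limma).

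miR-29b-3p, the member made from both loci, had 2.29, 2.32, 2.36 and 2.41 on the tacrolimus arrays, against 2.46, 2.34, 2.61 and 2.29 on the control arrays. Control 1 and control 3 were above every tacrolimus array, while control 2 and control 4 fell among them. The means of 2.35 ± 0.052 on tacrolimus and 2.43 ± 0.14 on control arrays (SD, n = 4 each) differed by -0.08 (SE 0.082), which is 0.945-fold with a 95% interval of 0.832 to 1.07 (adjusted p = 0.657, limma). It was the member with the lowest difference, and it missed the threshold as the others did.

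miR-29c-3p, which differs from miR-29a-3p by a single base, had 1.72, 1.90, 1.83 and 1.94 on the tacrolimus arrays, against 1.92, 1.87, 2.01 and 1.79 on the control arrays. The lowest value was that of tacrolimus 1 and the highest that of control 3, and the other 6 were mixed. The difference between 1.85 ± 0.095 on tacrolimus and 1.89 ± 0.091 on control arrays (SD, n = 4 each) was -0.04 (SE 0.076), or 0.969-fold with a 95% interval of 0.861 to 1.09 (adjusted p = 0.792, limma).

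miR-29c-5p comes from the other arm of the Mir29c hairpin and has its own seed. It had -3.91, -3.64, -3.70 and -3.58 on the tacrolimus arrays, against -3.63, -3.70, -3.55 and -3.80 on the control arrays. Tacrolimus 1 was the lowest array and control 3 the highest, as for miR-29c-3p. The means were -3.71 ± 0.14 on tacrolimus and -3.67 ± 0.10 on control arrays (SD, n = 4 each), with a difference of -0.04 (SE 0.090), 0.975-fold and a 95% interval of 0.847 to 1.12 (adjusted p = 0.853, limma).

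**Figure D2:**
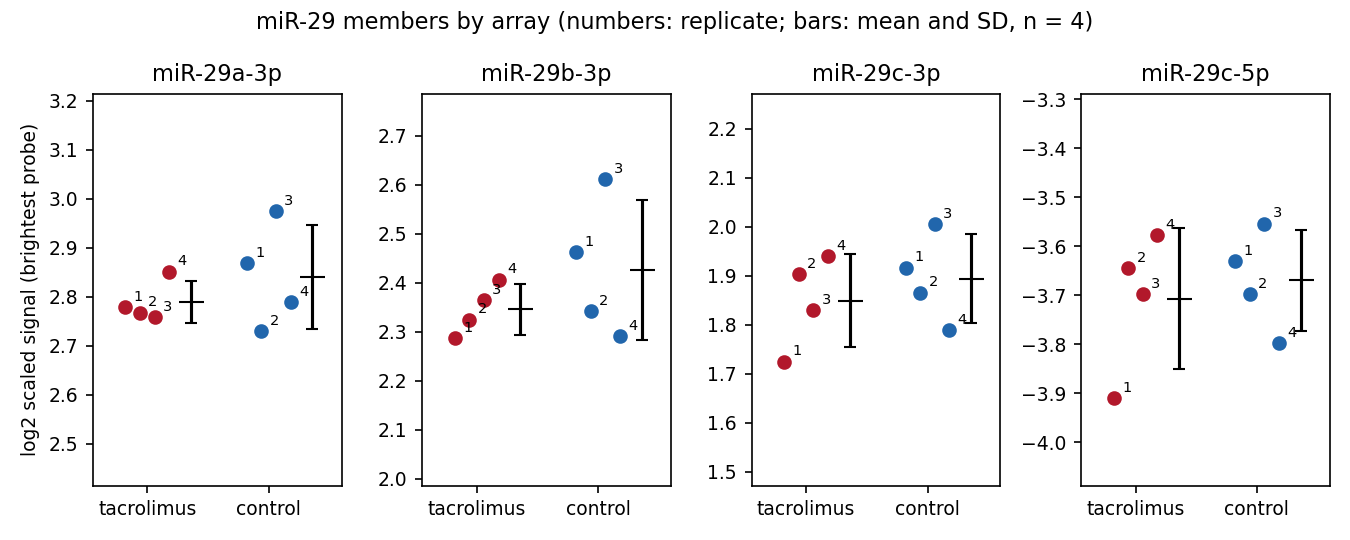
Log2 scaled signal of the brightest probe of the 4 detected members on each array (points, numbered by replicate), with the mean and SD of each group (n = 4), tacrolimus left and control right, each panel spanning the same log2 range. The groups overlap in all 4 panels, and control 3 is the highest array in each.

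None of the 4 tested members passed the threshold of 0.05 in either direction. Of the 4 tested members 0 were called, beside 6 of all 194 tested miRNAs (3.09%), which were all higher after tacrolimus. At an unadjusted p under 0.05 it was 0 of 4, against 30 of 194 (15.5%). The groups overlapped for all 4 members and did not overlap for 20 of the 194 miRNAs (10.3%). The median difference of the 4 tested members was -0.05, with all 4 below 0, against a median of 0.04 over all tested miRNAs, of which 79 (40.7%) were below 0. Without scaling all 4 members lay above 0, at 0.07 to 0.12, while the median of all tested miRNAs shifted to 0.19. Relative to the median of the same setting the members stood at -0.12 to -0.08 with scaling and at -0.11 to -0.07 without. Scaling divides an array by 1 value and so moves the members and the median nearly alike, which leaves this likeness without weight. With quantile normalization the members stood at -0.097 to -0.013 from the median, and with another background correction (normexp) at -0.060 to -0.011. Ordered from the lowest of the 194 differences, miR-29b-3p took rank 42, miR-29a-3p rank 54, miR-29c-3p rank 57 and miR-29c-5p rank 60.

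**Figure D3:**
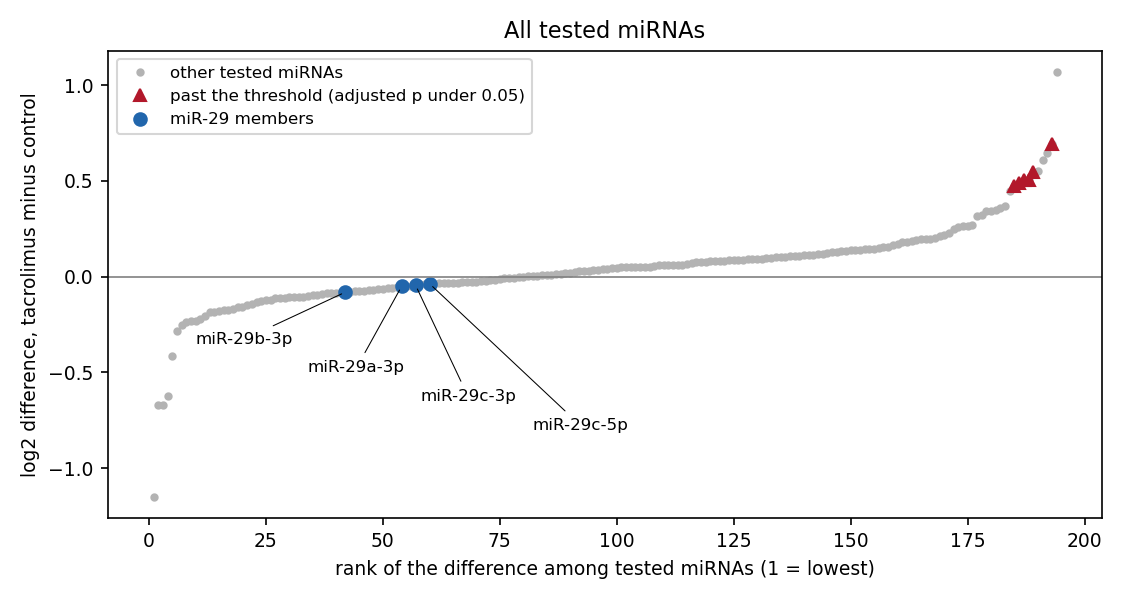
Log2 difference, tacrolimus minus control, of all 194 tested miRNAs in order of size, with the 4 tested miR-29 members as blue circles and the 6 miRNAs past the threshold as red triangles. The members lie just below 0 at ranks 42 to 60, away from both ends.

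The second probe of each 3p member gave nearly the same difference as the first. It was -0.05 for miR-29a-3p, -0.09 for miR-29b-3p and -0.045 for miR-29c-3p, with 95% intervals on the log2 scale of -0.21 to 0.10, -0.27 to 0.08 and -0.21 to 0.12. The dimmer probe of miR-29c-5p stood at 0.01 (interval -0.26 to 0.27), on the other side of 0 from its brighter partner. Adjusted p-values of these probes in limma, each put in place of the brightest probe, were 0.735, 0.619, 0.789 and 0.984.

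**Figure D4:**
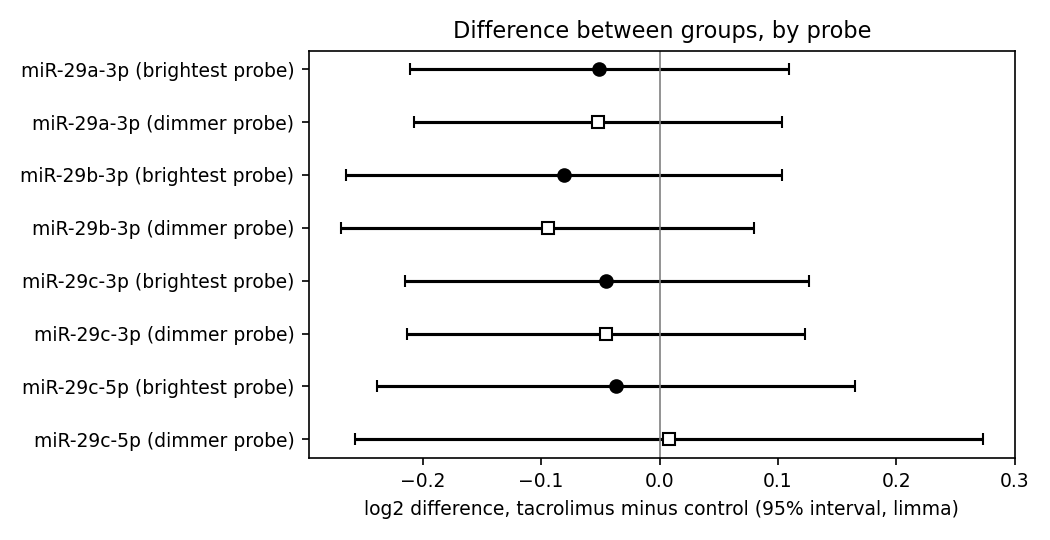
Log2 difference, tacrolimus minus control, with its 95% interval from limma (n = 4 arrays a group) for both probes of the 4 detected members, filled circles for the brightest probe and open squares for the other. Every interval spans 0, and the 2 probes of a member lie close together.

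The 3p members were then set against each other within each array, to see whether the treatment shifted their balance. Only the change of a ratio between groups is read, since levels of different probes cannot be compared. The log2 ratio of miR-29a-3p over miR-29c-3p differed between groups by -0.006, that of miR-29b-3p over miR-29a-3p by -0.03 and that of miR-29b-3p over miR-29c-3p by -0.04. All 3 overlapped between groups (exact two-sided permutation p = 0.914, 0.429 and 0.429, adjusted over the 3 pairs 0.914, 0.643 and 0.643). With 4 against 4 arrays no p below 0.0286 is possible. The ratios varied little, with an SD over 4 arrays of 0.040 to 0.081 in the tacrolimus and 0.057 to 0.059 in the control group.

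The members' profiles across arrays were compared with each other and with all tested miRNAs. As a measure of likeness, each miRNA was centred on its own mean over the 8 arrays and the root mean square difference between 2 centred log2 profiles was taken. It is a description, since all miRNAs share the arrays and their scaling, and the 3p probes are close to each other in sequence. miR-29c-5p was at 0.035 from miR-29c-3p, the other arm of the same hairpin and the nearest of 193 other miRNAs. miR-29b-3p was at 0.046 from miR-29a-3p, again the nearest of 193, and at 0.055 from miR-29c-3p. miR-29a-3p and miR-29c-3p, 1 base apart, were at 0.061 (rank 9 of 193), and miR-29a-3p and miR-29c-5p at 0.089 (rank 33).

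Outside the family, the profiles nearest to miR-29a-3p were those of miR-30a-5p (0.052), abundant in kidney epithelium, miR-200b-3p (0.052), a miRNA of epithelial cells, and the endothelial miR-126a-3p (0.056). miR-101a-3p was the nearest to miR-29b-3p (0.050) and to miR-29c-3p (0.044), and miR-103-3p to miR-29c-5p (0.059). let-7g-5p was among the nearest 3 of miR-29b-3p, miR-29c-3p and miR-29c-5p, at 0.058, 0.053 and 0.070, and miR-185-5p (0.060) was the third for miR-29b-3p. The second nearest were miR-103-3p for miR-29c-3p (0.050) and miR-101a-3p for miR-29c-5p (0.066). The median over the 190 miRNAs outside the family was 0.137 to 0.164. The 7 neighbours' own differences, tacrolimus minus control, ran from -0.12 for miR-185-5p to -0.01 for let-7g-5p, and 0 of them passed the threshold. Small differences follow from the choice of neighbours, since the compared profiles include the difference between groups, so nothing is read from this count.

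The spread of the members between replicates was modest. The residual SD was 0.081 for miR-29a-3p, 0.093 for miR-29c-3p, 0.107 for miR-29b-3p and 0.125 for miR-29c-5p, against a median of 0.133 over the 194 miRNAs. miR-29a-3p thus had the 33rd smallest residual SD of the 194. In same-numbered arrays, which stood in the same column of the slide, tacrolimus minus control for miR-29a-3p was -0.09, 0.04, -0.22 and 0.06 in replicates 1 to 4, and for miR-29c-5p -0.28, 0.05, -0.14 and 0.22. Replicates 1 and 3 lay below 0 in all 4 members. Control 1 and control 3 also had the wider negative control signals among the controls (SD, 10.5 and 9.69 intensity units, against 4.95 and 4.82), and tacrolimus 4 the widest among the tacrolimus arrays (20, against 4.45 to 5.46). Tacrolimus 4 was also the array with the fewest probes detected (9.6%, against 10.5% to 15.2% on the others) and the only one with a quality metric of the software out of range (1). Without tacrolimus 4 alone the differences were -0.18, -0.21, -0.19 and -0.19 for miR-29a-3p, miR-29b-3p, miR-29c-3p and miR-29c-5p, further below 0 than with all arrays, and 0 passed the threshold (adjusted p = 0.285, 0.285, 0.308 and 0.351, limma). For miR-29a-3p the 95% interval was then -0.36 to -0.01, with an unadjusted p of 0.043 in limma. The intervals of the other tested members spanned 0. Of all miRNAs, 32 of 194 had an unadjusted p under 0.05 in limma in this setting. Without control 1 as well the interval of miR-29a-3p was -0.41 to -0.003 (unadjusted p = 0.0476, adjusted p = 0.25, limma). There 37 of 193 miRNAs had an unadjusted p under 0.05 in limma. This set and that of 3 arrays below were chosen after seeing the data. Without tacrolimus 4 alone the scaling used 276 probes in place of 252, and the median of all tested miRNAs moved from 0.04 to -0.06. Relative to that median the members stood at -0.15 to -0.12, against -0.12 to -0.08 with all arrays. How much of the shift came from the scaling was not tested. Without all 3 of these arrays the differences were -0.03, -0.03, -0.04 and -0.04 for miR-29a-3p, miR-29b-3p, miR-29c-3p and miR-29c-5p.

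miRNAs with related roles were counted beside the family, in lists chosen with earlier results of these data known. Of 17 other miRNAs described as restraining fibrosis, 16 were tested and 0 passed the threshold (0 at an unadjusted p under 0.05, limma), with a median difference of 0.001 and 8 members on each side of 0. The lowest was miR-30e-5p at -0.09 and the highest let-7c-5p at 0.13 (adjusted p = 0.578 and 0.379, limma). let-7c-5p did not overlap between groups, which held for 20 of all 194 tested miRNAs (10.3%). Both were picked as the ends of the list after their values were seen. Of 11 miRNAs described as promoting fibrosis, 9 were tested and 4 rose, beside 6 of all 194 tested miRNAs (3.09%). The list median was 0.45. The difference was 0.47 for miR-199a-5p, 0.49 for miR-199a-3p, 0.50 for miR-199b-5p and 0.69 for miR-214-3p (adjusted p = 0.0478 each, limma). By name miR-199a-5p and miR-199a-3p are arms of the same precursor, and whether the 4 calls are separate signals was not tested. miR-21a-5p, raised in many injured kidneys, stood at 0.45 and missed the threshold (adjusted p = 0.104, limma). The other 4 tested were miR-34a-5p at -0.18, miR-132-3p at 0.09, miR-192-5p at 0.13 and miR-155-5p at 0.34, so that 8 lay above 0 and 1 below. Of the 6 calls over all 194 miRNAs, which include these 4, 0 remained when control 1, control 2, control 3, control 4, tacrolimus 1 or tacrolimus 4 was left out alone. 1 remained without tacrolimus 2 and 5 without tacrolimus 3. With all arrays, 0 of the 6 remained with outlier spots kept, probes averaged, a doubled floor or the authors' value table, among other settings. All 6 remained with quantile normalization and with median scaling, and 5 with detection required on all 8 arrays. Whether the lists differed from the miR-29 family was not tested.

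Tubule markers were present and most markers of other organs were not detected. All 6 tubule miRNAs were tested, with 0 called and a median difference of 0.10, their mean level spanning 0.33 to 0.46 on tacrolimus and 0.21 to 0.35 on control arrays. Of these 5 lay above 0 and 1 below, and 1 had an unadjusted p under 0.05 in limma (miR-204-5p, difference 0.34). Markers of liver, nerve and striated muscle were tested in 0 of 6 cases, and 5 of the 6, including miR-122-5p and miR-124-3p, were detected on no array. The sixth, the striated muscle miRNA miR-1a-3p, was detected on 2 tacrolimus and 0 control arrays. Of the smooth muscle and fibroblast markers 3 of 5 rose, namely miR-199a-3p, miR-199a-5p and, with them, miR-214-3p, which are also in the fibrosis-promoting list and whose calls single arrays remove, as given above. The others, miR-143-3p at 0.03 and miR-145a-5p at -0.08, did not pass the threshold, and both endothelial markers were uncalled (median 0.01). All 5 leukocyte miRNAs lay above 0 (median 0.55, mean level -3.54 to -3.23 on tacrolimus and -4.15 to -3.39 on control arrays) and all 3 erythrocyte miRNAs below 0 (median -0.67, mean level -3.01 to -2.61 on tacrolimus and -2.96 to -1.49 on control arrays). Over all 194 tested miRNAs, 3.09% passed the threshold and 15.5% had an unadjusted p under 0.05 in limma. In the leukocyte list and in the erythrocyte list 0 passed the threshold, and 3 in each had an unadjusted p under 0.05 in limma. Their part in the miR-29 values was not tested. The slide's second row held the tacrolimus arrays alone and its first row the controls, so the effect of the row and that of treatment cannot be told apart.

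**Figure D5:**
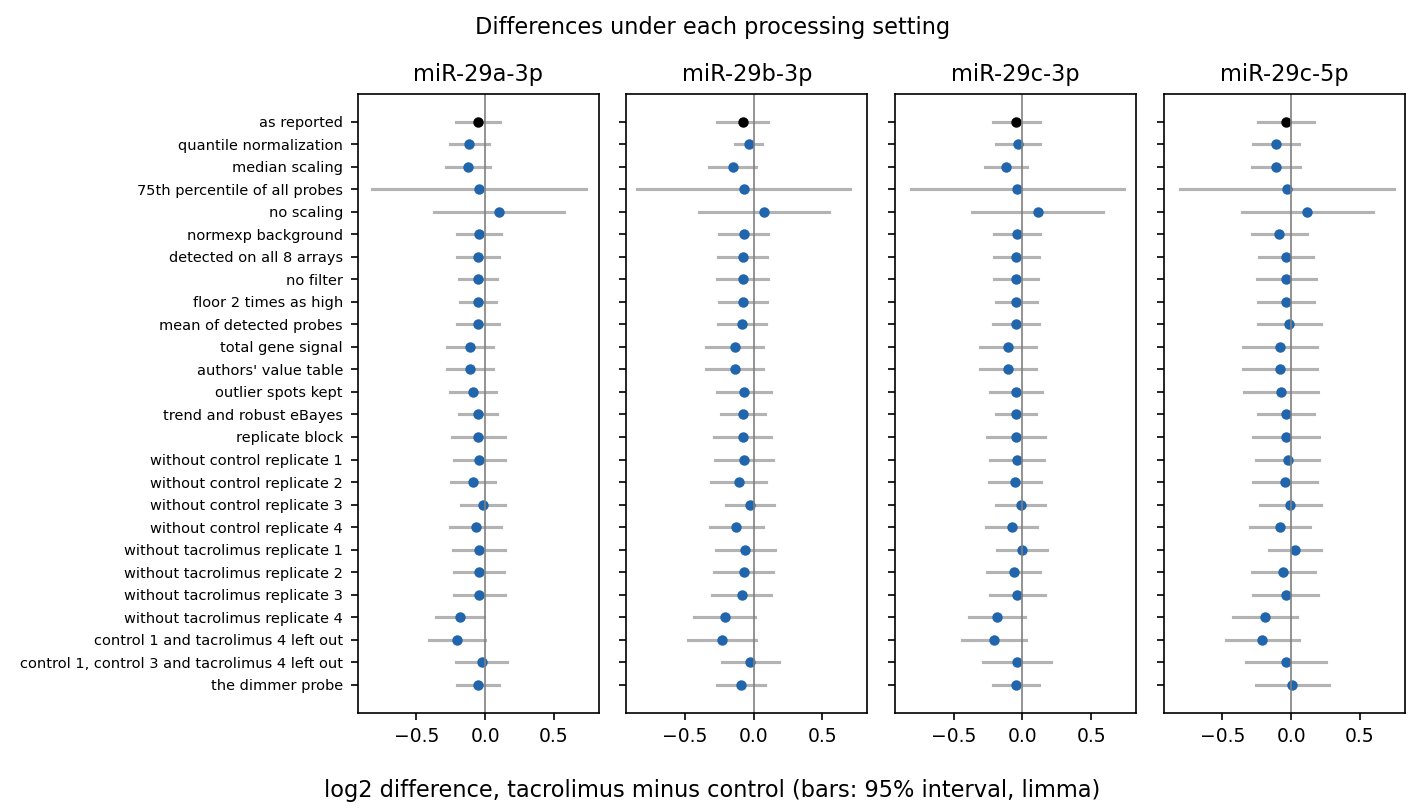
Log2 difference, tacrolimus minus control, of the 4 tested members under each processing setting, with 95% intervals from limma, the values as reported in black at the top. Points stay below 0 except without scaling and, for miR-29c-5p, without tacrolimus replicate 1 and with its dimmer probe.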

How the data were processed

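Per the file headers, the authors deposited spot intensity values on a linear scale from Feature Extraction 10.7.3.1, background-subtracted and spatially detrended, with no scaling between arrays. The headers name the build mm9, and coordinates given here are RefSeq's on GRCm38.p6. The authors' value table holds that software's total signal per gene, identical in 100% of cells (tolerance 1e-06). limma is named, without a version, per the submitters' processing notes.

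With R 4.3.3, limma 3.58.1 and data.table (1.17.8), outlier spots were left out, spots of a probe averaged, arrays divided by the 75th percentile over 252 probes that all 8 arrays detected, a floor set at -5.96 and log2 taken. The brightest probe stood for a miRNA, which was tested if the probe was detected on at least 4 of 8 arrays (194 of 1023). Groups were compared with lmFit and eBayes, two-sided, without covariates, adjusted by Benjamini-Hochberg over all 194. Precision is limited by 4 arrays a group. The fit was tested on simulated data with 20 of 194 miRNAs changed. It recovered 11.6% of log2 changes of 0.25, 74.8% of those of 0.5 and 95% of those of 1. Of the calls, 9.38%, 5.73% and 5.33% were false, so small changes would mostly be missed.

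Members and lists were chosen with earlier results of these data known. Named miRNAs are the members, the other arms of their hairpins, and the 3 nearest profiles of each tested member outside the family. Which members of other lists are named was decided after their values were seen. Alternatives covered normalization, background, filter, floor, probe summary, spot flags, variance model, the replicate block and leaving out arrays.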

Additional observations from a re-analysis of the deposited data

How the results depend on the processing

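Of the 4 tested members, 0 passed the threshold under any of 25 alternatives each, with adjusted p from 0.25 upwards in limma, and miR-29a-5p was detected on 0 arrays throughout. Without scaling the differences turned above 0, to 0.104 for miR-29a-3p, 0.074 for miR-29b-3p, 0.11 for miR-29c-3p and 0.118 for miR-29c-5p. miR-29c-5p was also above 0 without tacrolimus replicate 1 (0.0303) and with its dimmer probe (0.00786). In 24 of 24 settings with a median, each member lay below the median of all tested miRNAs. These settings re-use the same arrays, and several leave the distance from the median as it is, so the count is not repeated support. The nearest to the median was miR-29c-3p with normexp, at -0.0114 from it. Leaving out 1 array gave -0.184 to -0.0131 for miR-29a-3p, -0.213 to -0.0261 for miR-29b-3p, -0.187 to -0.00334 for miR-29c-3p and -0.192 to 0.0303 for miR-29c-5p. The lowest of these came without tacrolimus 4, where 276 probes entered the scaling and the median of all miRNAs was -0.0644. Without control 1 and tacrolimus 4 (an alternative chosen after seeing the data, as were the 3 arrays left out and the dimmer probe) the members stood at -0.231 to -0.205.

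The ratio of miR-29a-3p over miR-29c-3p, -0.00639, turned above 0 without control 1 and tacrolimus 4 (0.005) and without control 1, control 3 and tacrolimus 4 (0.0176), and ranged from -0.0443 to 0.0187 with 1 array left out. miR-29b-3p over miR-29a-3p turned with quantile normalization (0.0759) and outlier spots kept (0.015), ranging from -0.0577 to -0.013 with 1 array left out, and miR-29b-3p over miR-29c-3p without the 3 arrays (0.0174), ranging from -0.0579 to -0.0112. Without control 1 and tacrolimus 4, and also without control 3, the permutation test of a ratio cannot pass the threshold, so only directions are read there. With 1 array left out, the lowest adjusted p of the 3 ratios was 0.257 (exact permutation test).

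The 6 calls over all miRNAs became 0 without scaling, with scaling on every probe, with outlier spots kept, with the authors' table or total gene signal, with probes averaged, with a doubled floor, without a filter, with trend and robust estimation, and without the 2 or 3 arrays above (2 to 37 at an unadjusted p under 0.05, limma), and with normexp there was 1 call, not among the 6. With 1 array left out the count was 0 to 7. It was 1 without control 3 and 2 without control 4, with 0 of the 6 among them, 2 without tacrolimus 2, with 1 of the 6, and 7 without tacrolimus 3, with 5 of the 6. With the replicate block the count was 0 (31 at an unadjusted p under 0.05) and the members' adjusted p was 0.784, 0.67, 0.827 and 0.872 (limma), with differences that complete pairs leave as they are. Same-numbered arrays deviated together at 0.0994 to 0.135, below the 0.1 set for pairing in 1 of 4 pairs. Intervals were widest with the 75th percentile of all probes, reaching down to 0.555-fold for miR-29b-3p and up to 1.68-fold for miR-29c-5p. The cause of these changes was not tested.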
